A study of Homo sapiens with 15 samples.

Results

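The 32 genes described here encode enzymes and regulators of cholesterol and fatty acid synthesis, with a pair of sterol transport genes, and were taken by symbol from the 26485 gene rows of the count file. They comprise 18 genes of the mevalonate and sterol pathway, 5 regulators, 2 transport genes and 7 genes of fatty acid synthesis and desaturation. All 32 were found, and all 32 passed the filter on low counts. RNA-seq was carried out in ML1 and U937, human acute myeloid leukemia lines per the labels, after 24 h of treatment. The groups were ML1 with diluent, ML1 with 10 nM prexasertib, U937 with diluent, U937 with 10 nM prexasertib, and U937 with 10 nM prexasertib plus 350 nM LSN622666, called the combination below. Every group, diluent included, also received 5 µM Q-VD-OPh, a caspase inhibitor, and each held 3 libraries. Prexasertib is an inhibitor of the checkpoint kinase CHK1. LSN622666 is known here by its code name only, and LSN622666 without prexasertib, or in ML1, was not analysed here.

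Cells make cholesterol from acetyl-CoA through mevalonate, isoprenoids, squalene and lanosterol, and make fatty acids from the same acetyl-CoA through malonyl-CoA. Transcription of most of these enzymes is driven by sterol regulatory element-binding proteins, encoded by SREBF1 and SREBF2. SCAP escorts these factors out of the endoplasmic reticulum when sterols are low, and the INSIG proteins hold SCAP back when sterols are high. SREBF1 products act mainly on fatty acid genes and SREBF2 products mainly on cholesterol genes, and INSIG1 and both SREBF genes are themselves targets of the pathway. Proliferating leukemia cells draw on both pathways for membrane lipids.

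The promoters of 3 members are shown because these genes stand for the regulators and the fatty acid branch in the comparisons below. Each carries at least 1 of the 2 motifs that were searched. The sequences are from RefSeq (GRCh38.p14), plus strand, and lie upstream of the RefSeq and the GENCODE gene start: SREBF2 at chr22:41832925-41833074, INSIG1 at chr7:155297688-155297767 and SCD at chr10:100346993-100347112. Capitals mark TCACNCCAC, a sterol regulatory element, and CCAAT, the box bound by NF-Y, on either strand.
SREBF2: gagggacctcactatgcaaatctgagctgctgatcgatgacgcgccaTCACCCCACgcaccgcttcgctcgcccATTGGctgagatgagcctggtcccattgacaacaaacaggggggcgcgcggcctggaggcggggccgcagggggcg
INSIG1: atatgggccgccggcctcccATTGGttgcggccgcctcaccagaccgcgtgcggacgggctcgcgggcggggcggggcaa
SCD: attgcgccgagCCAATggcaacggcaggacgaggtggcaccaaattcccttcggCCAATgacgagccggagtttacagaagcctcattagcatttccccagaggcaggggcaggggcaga
RefSeq windows from 250 bases before to 50 bases after the start were available for 28 members, in 38 windows. TCACNCCAC was found in 1 of the 28 members, SREBF2, and in 1.13% of all 35116 windows. Sites that differ from these letters, or lie outside the windows, were not counted. CCAAT was found in 20 of the 28 members, in 24 of their 38 windows, and in 34.6% of all windows; the INSIG1 stretch holds it once and the SCD stretch at 2 places. The 2 motifs do not overlap in the stretches shown.

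Library totals ran from 49011222 to 87301014 counts, and log-scale correlations within a group from 0.982 to 0.9937. The labels number the replicates but do not say that they were separate cultures, so p-values measure the spread between these libraries, which may be technical. Myeloid markers were present in both lines: summed over 9 genes, they reached 1990 to 2290 CPM in ML1 and 923 to 1100 CPM in U937 with diluent. CPM are read counts scaled to a common library size. Of 15 markers of other cell types, CD3D, CD3E and EPCAM were at 0 in every library, and the summed level stayed between 10.2 and 27.4 CPM over all libraries. In U937, prexasertib replicate 2 stood apart for these members: it was the lowest of the 3 prexasertib libraries in 26 of the 32. The median member's log2 difference from the diluent mean was -0.99 in that library, -0.33 in replicate 1 and -0.28 in replicate 3. Calls in U937 with prexasertib are therefore given with and without it. In bulk RNA, a lower level per cell and fewer cells with the RNA cannot be told apart.

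After 24 h with diluent plus Q-VD-OPh, the lines differed in these genes. In U937, 12 of 32 members were higher and 9 lower than in ML1 (edgeR quasi-likelihood test, adjusted p below 0.05 over 17243 genes, here named a call). Of all genes tested, 32.0% were called higher and 29.4% lower, and the members' shares, 37.5% and 28.1%, were close to these. Per exon length, SCD, the stearoyl-CoA desaturase, was the most abundant member in both lines, at 386 ± 46.8 RPKM (SD, n = 3) in U937 and 209 ± 20.7 in ML1. RPKM divide the scaled counts further by exon length. INSIG1 followed in U937 at 222 ± 37.8 RPKM, a distance from SCD larger than both spreads. In ML1 FDPS, the farnesyl diphosphate synthase, at 136 ± 16.5 RPKM and INSIG1 at 135 ± 44.7 did not differ beyond their spread. In both lines FASN, the fatty acid synthase, was near 100: 99.0 ± 14.7 RPKM in U937 and 108 ± 11.0 in ML1. FDFT1, squalene synthase, was at 143 ± 25.0 RPKM in U937 and 69.4 ± 9.82 in ML1. Among the members detected in both lines, TM7SF2, a sterol reductase, had the lowest level, at 2.22 ± 0.174 RPKM in U937 and 3.43 ± 0.254 in ML1.

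The sterol branch leaned to U937, with 9 of 18 members higher and 4 lower. DHCR7, which makes cholesterol in the last reduction of 1 route, was at 212, 205 and 222 CPM in U937 with diluent and at 32.7, 53.7 and 55.1 CPM in ML1. The groups did not overlap, and the log2 difference was 2.17 ± 0.32 (SE, adjusted p = 2.2e-05). NPC1, which exports cholesterol from lysosomes, differed by 2.08 ± 0.17 (adjusted p = 1.1e-08), with 111, 163 and 188 CPM in U937 against 30.5, 40 and 38.9 in ML1. SQLE, the squalene epoxidase, differed by 1.25 ± 0.17 (adjusted p = 6.2e-06), SC5D by 1.07 ± 0.17 and FDFT1 by 1.04 ± 0.25. ACAT2, the cytosolic acetoacetyl-CoA thiolase, was higher in U937 by 1.73 ± 0.20 (adjusted p = 5.2e-07). However, 35.8% of its exon length overlaps exons of other genes, among them TCP1, a chaperonin subunit, which was itself at 607 to 779 CPM in U937 and 146 to 158 in ML1. The counting used no strand, so reads of this pair cannot be told apart where they overlap. The regulators went the other way for SREBF2 (-0.57 ± 0.14, adjusted p = 0.0023) and SCAP (-0.44 ± 0.13, adjusted p = 0.0063), both lower in U937. SREBF1 had -0.48 ± 0.25 (adjusted p = 0.11), INSIG1 0.72 ± 0.35 (adjusted p = 0.090) and INSIG2 0.49 ± 0.21 (adjusted p = 0.0497). STARD4, a sterol carrier of the cytosol, was lower in U937 (-1.06 ± 0.27, adjusted p = 0.0025). The calls of HMGCS1 (0.51 without ML1 diluent replicate 1), MVK (-0.48 without ML1 diluent replicate 2), FDPS (-0.49 without U937 diluent replicate 2), INSIG2 (0.30 without U937 diluent replicate 1), SCD (0.80 without U937 diluent replicate 3) and ACLY (-0.32 without U937 diluent replicate 1) were lost on leaving out those libraries, and for some of them on leaving out others.

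Among these members, 2 were nearly silent in U937. HSD17B7 encodes the 3-ketosteroid reductase of cholesterol synthesis, and U937 has long been known as a cholesterol auxotroph defective in that step. Its raw counts in ML1 with diluent were 1259, 2913 and 1916, and in U937 with diluent 0, 5 and 4. Over the 3 libraries each, ML1 held 584 times the U937 level per library size (95% interval 307 to 1280, counting error only). The 9 U937 libraries held 53 counts in all, with 22 of them in prexasertib replicate 2. HSD17B7P2, a pseudogene copy on another chromosome, had 324, 995 and 789 counts in ML1 with diluent and 0, 0 and 1 in U937. How reads were split between the gene and its copy is uncertain, but both were low in the same line. ELOVL6, the elongase for saturated and monounsaturated fatty acids, had 2429, 3703 and 2502 counts in ML1 with diluent and 4 in each U937 diluent library. ML1 held 621 times the U937 level (95% interval 355 to 1200). Across the table, 130 genes, 0.754% of those tested, had a fitted log2 difference below -9 in the same direction.

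**Figure D1:**
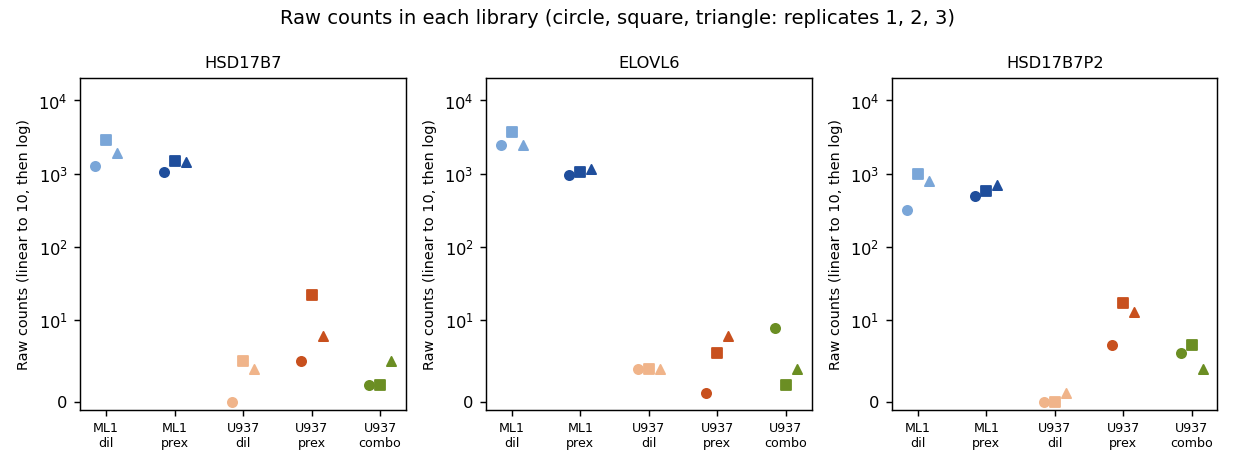
Raw counts of HSD17B7, its pseudogene HSD17B7P2 and ELOVL6 in each library, with libraries grouped by line and treatment on the x axis (dil, diluent; prex, prexasertib; combo, combination) and counts on a y axis that is linear up to 10 and logarithmic above. HSD17B7 lies between 1065 and 2913 counts in the ML1 libraries and between 0 and 22 in the U937 libraries.

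In ML1, 22 of the 32 members fell with prexasertib, 2 rose and 8 had no call. Over all genes tested, 23.5% were called lower and 25.3% higher. The median log2 change of the members was -0.81, against 0.02 over all genes. All 7 fatty acid genes fell (median -1.50), as did 11 of the 18 sterol genes (median -0.69) and 4 of the 5 regulators (median -0.59).

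Of the regulators, SREBF1 changed most in ML1. It was at 270, 270 and 267 CPM with diluent and at 51.2, 81.3 and 83.2 CPM with prexasertib. The lowest diluent library lay more than 3 times above the highest prexasertib library, and the log2 change was -1.90 ± 0.26 (adjusted p = 1.2e-05), or 3.74-fold lower. INSIG1 went from 303, 582 and 587 CPM to 101, 197 and 170 CPM, without overlap (-1.65 ± 0.36, adjusted p = 0.0014). In ML1 replicate 1 was the lowest for INSIG1 in both groups. SREBF2 fell less, from 508, 524 and 528 CPM to 305, 366 and 367 CPM (-0.59 ± 0.14, adjusted p = 0.0025). SCAP fell by 0.53 on the log2 scale (SE 0.13, adjusted p = 0.0021). INSIG2 had -0.46 ± 0.21 (adjusted p = 0.079) with overlapping groups.

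The fatty acid genes held the 2 members with the lowest values in ML1. SCD, which introduces the double bond of monounsaturated fatty acids, was at 999, 1170 and 1210 CPM with diluent and at 156, 254 and 280 CPM with prexasertib (-2.29 ± 0.32, adjusted p = 1.9e-05), 4.89-fold lower. FADS2, a desaturase of polyunsaturated fatty acids, was at 350, 431 and 405 CPM and then at 54.6, 108 and 119 CPM (-2.07 ± 0.36, adjusted p = 0.00021). FADS1, its partner desaturase, fell by 1.83 on the log2 scale (SE 0.28, adjusted p = 5.0e-05). These neighbours share 4.89% to 5.57% of their exon length with other genes, in part with each other, so a small part of their reads is shared. ACACA, the acetyl-CoA carboxylase that commits carbon to fatty acids, had close values within each group, at 145, 132 and 136 CPM and then 50, 47.1 and 49 CPM (-1.50 ± 0.18, adjusted p = 2.3e-06). FASN went from 897, 1060 and 1090 CPM to 267, 424 and 398 CPM (-1.48 ± 0.19, adjusted p = 4.1e-06). ELOVL6 fell by 1.21 (SE 0.21, adjusted p = 0.00015) and ACLY, which makes cytosolic acetyl-CoA from citrate, by 0.69 (SE 0.13, adjusted p = 0.00020), both as log2 values. In none of the 7 genes did the diluent and prexasertib libraries of ML1 overlap. The share of all genes without overlap between groups was not counted, in this or any other comparison.

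Sterol genes in ML1 ranged from -1.39 to 0.42. FDPS was at 434, 549 and 530 CPM with diluent and at 154, 206 and 217 CPM with prexasertib (-1.39 ± 0.22, adjusted p = 3.7e-05). EBP, a sterol isomerase, had -1.24 ± 0.20, ACAT2 -1.11 ± 0.19, and the kinases of mevalonate metabolism PMVK and MVK -1.10 ± 0.15 and -1.07 ± 0.25. IDI1 (-0.91 ± 0.20), MVD (-0.84 ± 0.21) and FDFT1 (-0.78 ± 0.25) of the isoprenoid and squalene steps also fell, as did DHCR7 (-0.93 ± 0.31), NSDHL (-0.51 ± 0.18) and LSS, the lanosterol synthase (-0.46 ± 0.17). The 6 sterol genes with no call had values from -0.61 (CYP51A1, adjusted p = 0.054) to -0.27 (SQLE and SC5D), among them HMGCS1 at -0.46 ± 0.25, MSMO1 at -0.57 ± 0.30 and HSD17B7 at -0.33 ± 0.29. The members that rose were TM7SF2 (0.42 ± 0.16, adjusted p = 0.034) and the transporter NPC1, which went from 30.5, 40 and 38.9 CPM to 60.7, 62 and 59 CPM (0.73 ± 0.17, adjusted p = 0.0016). STARD4 had 0.35 ± 0.27 (adjusted p = 0.30). Of the 24 calls, 19 held in all 13 alternative analyses. The other 5 lost the call on leaving out a library: DHCR7 had -0.63 (adjusted p = 0.071), FDFT1 -0.60 (adjusted p = 0.089), NSDHL -0.28 (adjusted p = 0.12) and LSS -0.39 (adjusted p = 0.11) without ML1 prexasertib replicate 1, and TM7SF2 had 0.33 (adjusted p = 0.15) without ML1 prexasertib replicate 2. Leaving out ML1 diluent replicates also ended some of these calls, such as NSDHL at -0.38 (adjusted p = 0.13) without replicate 2, DHCR7 at -0.81 and TM7SF2 at 0.37 without replicate 3, and LSS at -0.47 without replicate 1.

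Myeloid markers moved in the same libraries. With prexasertib, 6 of 9 (66.7%) rose in ML1 and 1 (11.1%) fell, against 25.3% and 23.5% of all genes. Their summed level went from 1990 to 2290 CPM with diluent to 4890 to 6590 CPM with prexasertib. Most of that rise was LYZ, lysozyme, which went from 641, 499 and 401 CPM to 3360, 4460 and 3060 CPM (2.82 ± 0.18). CD68, a lysosomal protein of macrophages, had a log2 change of 2.36 ± 0.11. MPO, myeloperoxidase, was the marker that fell, from 834, 1060 and 953 CPM to 349, 619 and 554 CPM. The summed level of the other cell types' markers was 13.5 to 14.2 CPM with diluent and 10.2 to 12.4 CPM with prexasertib in ML1. The part of these changes in the lipid gene values was not tested.

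**Figure D2:**
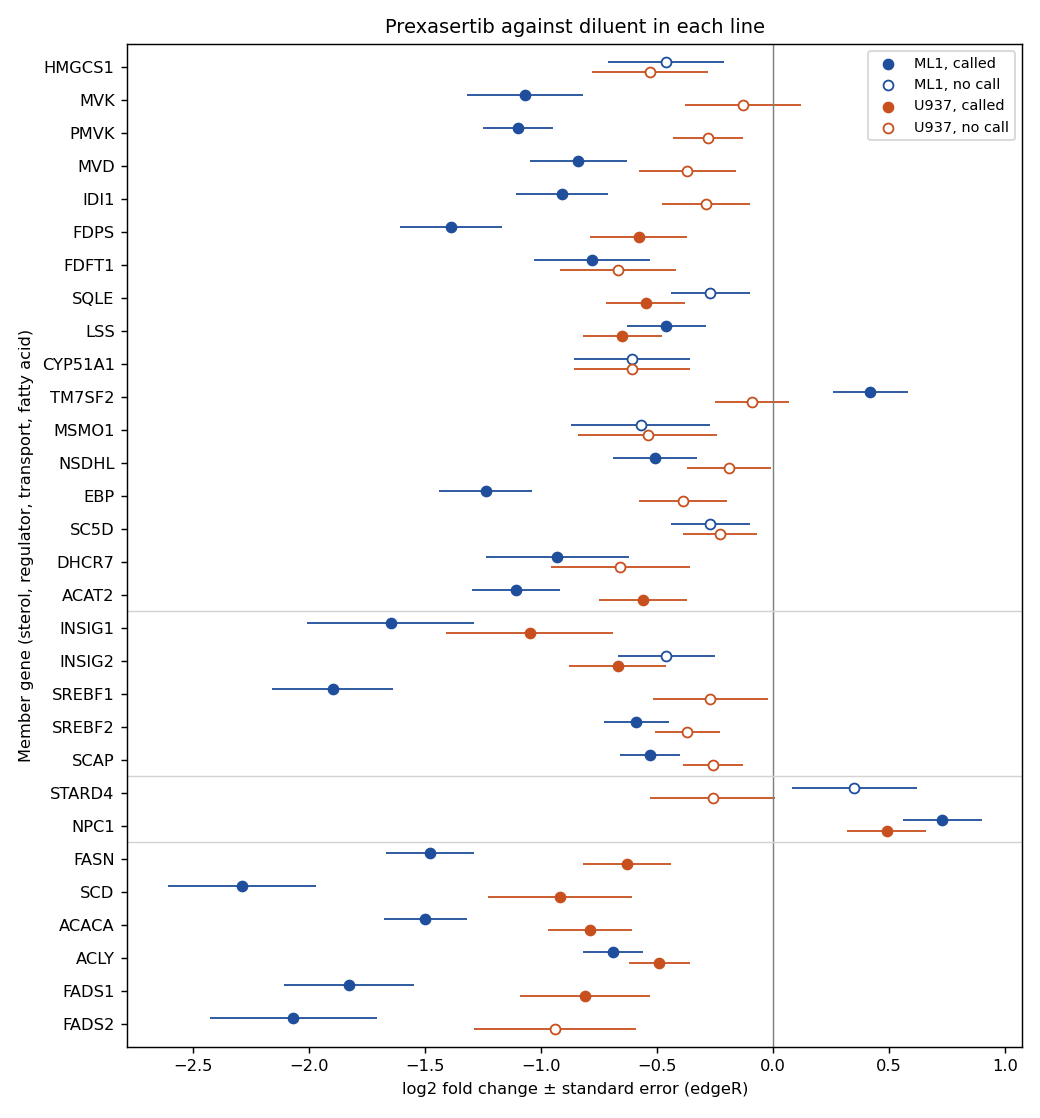
The log2 fold change with prexasertib against diluent for 30 of the 32 members in ML1 and U937, on the x axis with standard error bars and with genes on the y axis separated by role. HSD17B7 and ELOVL6 are left out because they were nearly silent in U937; filled points were called and open points were not. Most points lie left of 0 in both lines, with SCD at -2.29 in ML1 and -0.92 in U937 and NPC1 right of 0 in both.

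In U937, prexasertib gave lower values for 29 of the 32 members, the number seen in ML1, with 11 calls lower and 1 higher. Over all genes tested, 12.8% were called lower and 18.3% higher, and the median log2 change was -0.51 for the members and 0 for all genes. The fatty acid genes gave 5 of 7, the regulators 2 of 5 and the sterol genes 4 of 18 of the lower calls. Without prexasertib replicate 2, 3 members fell, NPC1 had 0.48 (adjusted p = 0.092) and no call, the members' median was -0.32, and 5.04% of all genes were called lower. Without diluent replicate 1, 7 members fell, with 11.7% of all genes called lower. Without diluent replicate 3, 5 did, with 9.44% of all genes. The 3 that stayed below the threshold without prexasertib replicate 2 were ACACA, LSS and ACLY, and these held in all 13 alternatives.

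ACACA was at 86.4, 124 and 140 CPM with diluent and at 73.6, 47.2 and 82.6 CPM with prexasertib, all below the diluent libraries (-0.79 ± 0.18, adjusted p = 0.0038, and -0.61 without replicate 2). LSS was at 257, 258 and 292 CPM and then at 197, 111 and 206 CPM (-0.65 ± 0.17, adjusted p = 0.0083, and -0.44 without replicate 2). ACLY was at 345, 416 and 387 CPM and then at 282, 223 and 312 CPM (-0.49 ± 0.13, adjusted p = 0.0079, and -0.39 without replicate 2). In each of the 3 genes the groups did not overlap, although replicate 2 was lowest.

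The other 8 lower calls in U937 were lost without replicate 2. INSIG1 was at 860, 653 and 914 CPM with diluent and at 510, 185 and 475 CPM with prexasertib (-1.05 ± 0.36, adjusted p = 0.036), and without replicate 2 its change was -0.74 (adjusted p = 0.10). SCD was at 2120, 1800 and 2290 CPM and then at 1450, 475 and 1350 CPM (-0.92 ± 0.31, adjusted p = 0.034), with -0.59 (adjusted p = 0.083) without it. The prexasertib libraries of both genes lay below every diluent library, replicates 1 and 3 included. FADS1 had -0.81 ± 0.28 (adjusted p = 0.036) and -0.51 without replicate 2, FASN -0.63 ± 0.19 (adjusted p = 0.017) and -0.48, INSIG2 -0.67 ± 0.21 (adjusted p = 0.022) and -0.54, SQLE -0.55 ± 0.17 (adjusted p = 0.022) and -0.40, FDPS -0.58 ± 0.21 (adjusted p = 0.046) and -0.34, and ACAT2 -0.56 ± 0.19 (adjusted p = 0.033) and -0.36. NPC1, the member that rose, was at 111, 163 and 188 CPM and then at 186, 213 and 250 CPM (0.49 ± 0.17, adjusted p = 0.035), with overlapping groups. Its change was 0.28 (adjusted p = 0.18) without diluent replicate 1. Other diluent libraries also ended calls: without diluent replicate 1, INSIG1 had -1.03 (adjusted p = 0.077) and INSIG2 -0.52 (adjusted p = 0.086), and without diluent replicate 3, SCD had -0.88 (adjusted p = 0.080), FADS1 -0.72, FDPS -0.58, ACAT2 -0.58 and SQLE -0.55.

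**Figure D3:**
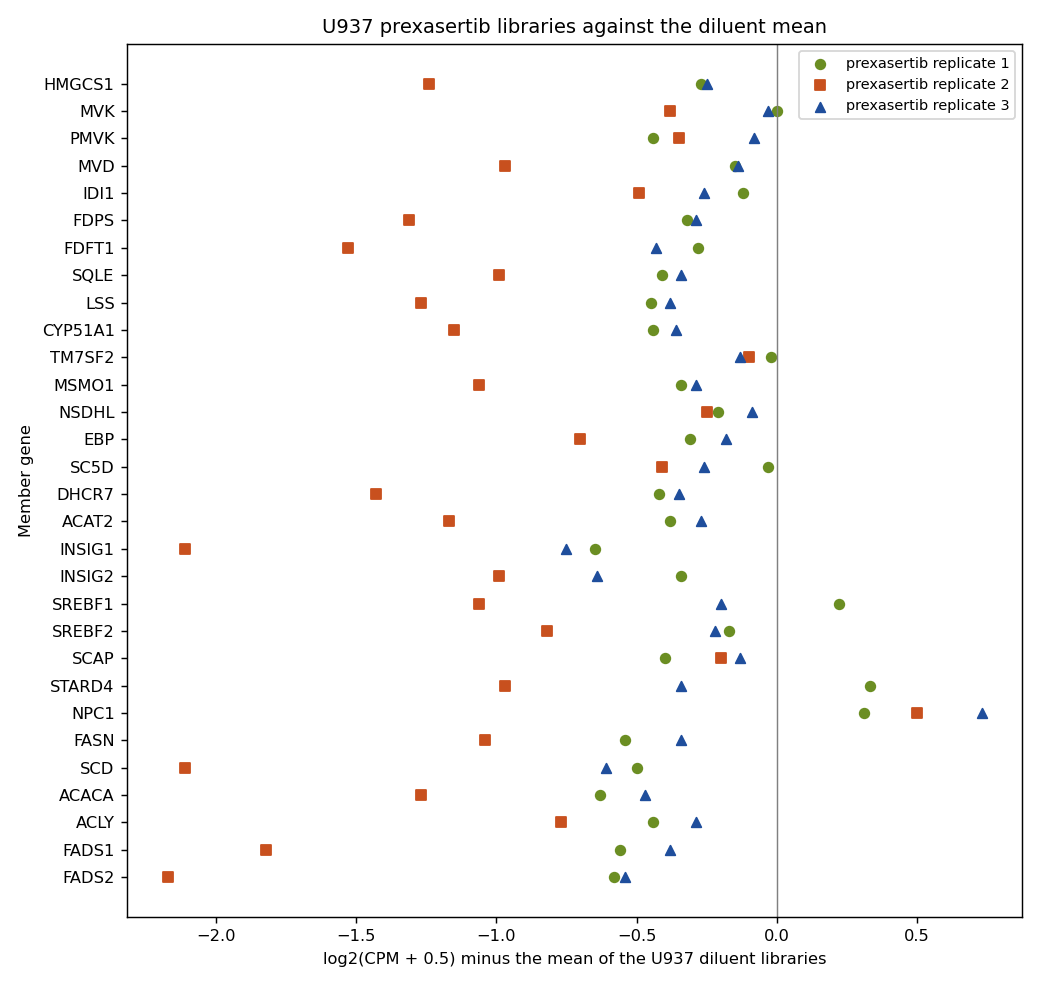
Each U937 prexasertib library against the mean of the U937 diluent libraries for 30 members (HSD17B7 and ELOVL6 left out), as log2(CPM + 0.5) differences on the x axis and genes on the y axis. Replicate 2 (squares) lies farthest left for most genes, with a median over all 32 members of -0.99 against -0.33 for replicate 1 (circles) and -0.28 for replicate 3 (triangles).

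Other measures moved in the same U937 libraries. The summed level of the 9 myeloid markers was 923 to 1100 CPM with diluent and 744 to 894 CPM with prexasertib, without overlap. The markers did not move together: 5 had a negative and 4 a positive log2 change. Of the 9, 1 (11.1%) was called higher and 1 (11.1%) lower, against 18.3% and 12.8% of all genes. Without prexasertib replicate 2, 0 were called, against 10.3% and 5.04% of all genes. The summed level of the other cell types' markers was 16.4 to 24.3 and 16.6 to 22.0 CPM. The number of genes detected was 17782 to 18435 with diluent and 19742 to 21023 with prexasertib, highest in replicate 2. Their part in the lipid gene values was not tested.

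Both SREBF genes and SCAP had no call in U937. SREBF1 was at 226, 164 and 190 CPM with diluent and at 223, 91.3 and 166 CPM with prexasertib, with overlap (-0.27 ± 0.25, adjusted p = 0.44, and -0.01 without replicate 2). SREBF2 was at 353, 340 and 357 CPM and then at 312, 198 and 301 CPM, without overlap (-0.37 ± 0.14, adjusted p = 0.058, and -0.22 without replicate 2). SCAP had -0.26 ± 0.13 (adjusted p = 0.13), and -0.30 without it. Just above the threshold lay FDFT1 (-0.67 ± 0.25, adjusted p = 0.052, and -0.39 without replicate 2) and FADS2, at 532, 396 and 491 CPM and then at 315, 104 and 323 CPM (-0.94 ± 0.35, adjusted p = 0.053, and -0.60 without replicate 2). The remaining sterol genes had values between -0.66 (DHCR7) and -0.09 (TM7SF2), apart from HSD17B7 with its few counts.

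**Figure D4:**
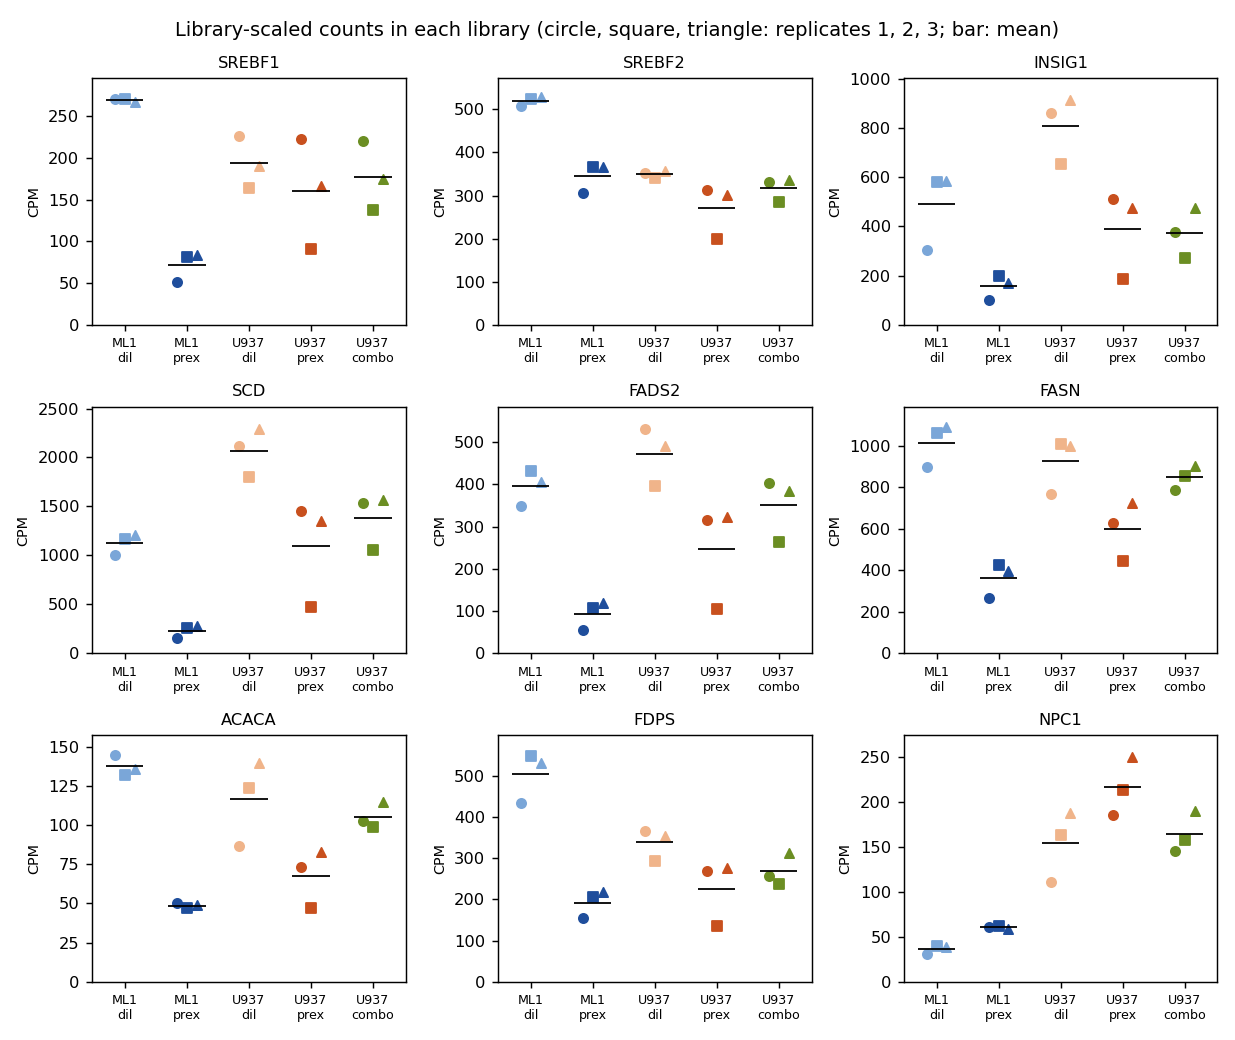
CPM of 9 members in each of the 15 libraries, from 0 on a linear y axis, grouped on the x axis by line and treatment (dil, diluent; prex, prexasertib; combo, combination), with markers for replicates 1 to 3 and a bar at the mean. SREBF1 falls from near 270 to at most 83.2 CPM in ML1, while its U937 groups overlap.

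Of the members lower in U937, 9 were also lower in ML1: FDPS, LSS, ACAT2, INSIG1, FASN, SCD, ACACA, ACLY and FADS1. These were 81.8% of the 11 in U937 and 40.9% of the 22 in ML1, from comparisons that share no libraries. Over all genes, 58.4% of those lower in U937 were also lower in ML1, and 31.9% the other way round. These overlaps start from unlike shares, as 68.8% of the members but 23.5% of all genes were lower in ML1. Without U937 prexasertib replicate 2, 3 members were lower in both lines, LSS, ACACA and ACLY. These were 100% of the 3 lower in U937, against 64.8% over all genes, and 13.6% of the 22 in ML1, against 14.1%. NPC1 rose in both lines, and in U937 its call was lost without that library. The test of the difference itself, the U937 change minus the ML1 change, called 6 members in the main edgeR fit and 9 in DESeq2. All had a less negative or more positive value in U937, and neither of these fits called a member the other way. With the replicate block, edgeR called 13 this way and 2 the other way, with 17.5% and 16.8% of all genes. Over all genes, 12.4% of differences were called higher and 12.3% lower in the main edgeR fit, and 13.6% and 14.7% in DESeq2. In the main edgeR fit 13 members had an unadjusted p below 0.05. SREBF1 had the largest difference of the 6, 1.64 ± 0.36 (adjusted p = 0.0028), between changes of -1.90 in ML1 and -0.27 in U937. SCD differed by 1.37 ± 0.44 (adjusted p = 0.030), FASN by 0.86 ± 0.26 (adjusted p = 0.023), EBP by 0.85 ± 0.28 (adjusted p = 0.031), PMVK by 0.81 ± 0.21 (adjusted p = 0.0093) and ACACA by 0.71 ± 0.25 (adjusted p = 0.046). SREBF1 and PMVK were called in all 19 alternatives. The others lost the call on leaving out 1 library: EBP (0.61, adjusted p = 0.058) and SCD (1.15, adjusted p = 0.079) without ML1 prexasertib replicate 1, FASN (0.71, adjusted p = 0.073) and ACACA (0.52, adjusted p = 0.13) without U937 diluent replicate 1, and each also without further libraries. Without U937 prexasertib replicate 2 the count of higher differences was 10, with 11.1% of all genes called higher. Without ML1 diluent replicate 2 or 3, ML1 prexasertib replicate 1 or U937 prexasertib replicate 3 it was 2. The shares of all genes there were 9.83%, 10%, 10.9% and 11.3%. Without U937 diluent replicate 1 or 2 it was 3, with 10.3% and 9.99% of all genes.

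With LSN622666 added to prexasertib in U937, 5 members were higher and 1 lower than with prexasertib alone. Over all genes, 11.9% were called higher and 17.1% lower, and the members' median was 0.17 against 0.01. Same-numbered libraries of these 2 groups deviated together, but the values given here are from the fit without pairing. With the replicate number as a block the counts were 8 higher and 2 lower, with 18.8% and 22.2% of all genes called. These calls share the prexasertib libraries with the comparison above, replicate 2 included. Without it, 3 members were higher, with 6.32% of all genes called higher, HSD17B7 lost its call and the median was -0.01. Without combination replicate 3, 3 members were higher, with 7.71% of all genes.

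TM7SF2 had the highest value, at 7.45, 7.03 and 6.88 CPM with prexasertib and at 15.1, 10.7 and 12.1 CPM in the combination (0.83 ± 0.16, adjusted p = 0.0010). The groups did not overlap. LSS was at 197, 111 and 206 CPM and then at 290, 260 and 307 CPM (0.74 ± 0.17, adjusted p = 0.0036). SCAP, the escort protein, was at 111, 127 and 133 CPM and then at 165, 186 and 184 CPM (0.53 ± 0.13, adjusted p = 0.0054). These 3 calls held in all 13 alternatives. ACACA was higher by 0.64 ± 0.18 (adjusted p = 0.012), with 0.44 (adjusted p = 0.061) without prexasertib replicate 2 and 0.57 (adjusted p = 0.053) without combination replicate 3. MVD, the decarboxylase that makes isopentenyl diphosphate, was higher by 0.58 ± 0.21 (adjusted p = 0.048), with 0.36 (adjusted p = 0.22) without prexasertib replicate 2 and 0.47 (adjusted p = 0.17) without combination replicate 3. HSD17B7 was called lower on 5, 22 and 8 counts against 2, 2 and 5, and without prexasertib replicate 2 the adjusted p was 0.32. FASN had 0.50 ± 0.18 (adjusted p = 0.052) without overlap between the groups. INSIG1 was at 377, 273 and 475 CPM in the combination, overlapping the prexasertib libraries (-0.06 ± 0.35, adjusted p = 0.92), and SREBF1 (0.14 ± 0.25), SREBF2 (0.23 ± 0.14) and INSIG2 (0.26 ± 0.21) had no call.

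Set against diluent, the combination gave 1 call among the members, TM7SF2 at 0.74 ± 0.16 (adjusted p = 0.0077), from 8.13, 6.95 and 7.68 CPM with diluent. Over all genes, 6.88% were called higher and 4.11% lower. The call was lost without U937 diluent replicate 2 (0.65, adjusted p = 0.057) or combination replicate 1 (0.56, adjusted p = 0.070). No member was called lower in the main edgeR fit, and 8 members had an unadjusted p below 0.05 in either direction. With only the groups compared, edgeR called 5 members lower, with 4.44% of all genes. With the replicate block it called 10 lower, with 12% of all genes. DESeq2 called 3 members lower, with 8.09% of all genes called lower. The members' median was -0.29, and 27 of 32 values were negative. INSIG1 had -1.11 ± 0.36 (adjusted p = 0.058), and its 3 combination libraries lay below all diluent libraries. FDFT1 had -0.72 ± 0.25 (adjusted p = 0.070), SQLE -0.52 ± 0.17 (adjusted p = 0.060) and SCD -0.58 ± 0.31 (adjusted p = 0.23), each without overlap. LSS (0.09 ± 0.17), FASN (-0.13 ± 0.18), ACACA (-0.15 ± 0.18) and SREBF1 (-0.13 ± 0.25) overlapped the diluent libraries. SCAP (0.27 ± 0.13, adjusted p = 0.17), SREBF2 (-0.14 ± 0.14) and INSIG2 (-0.41 ± 0.21) had no call.

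**Figure D5:**
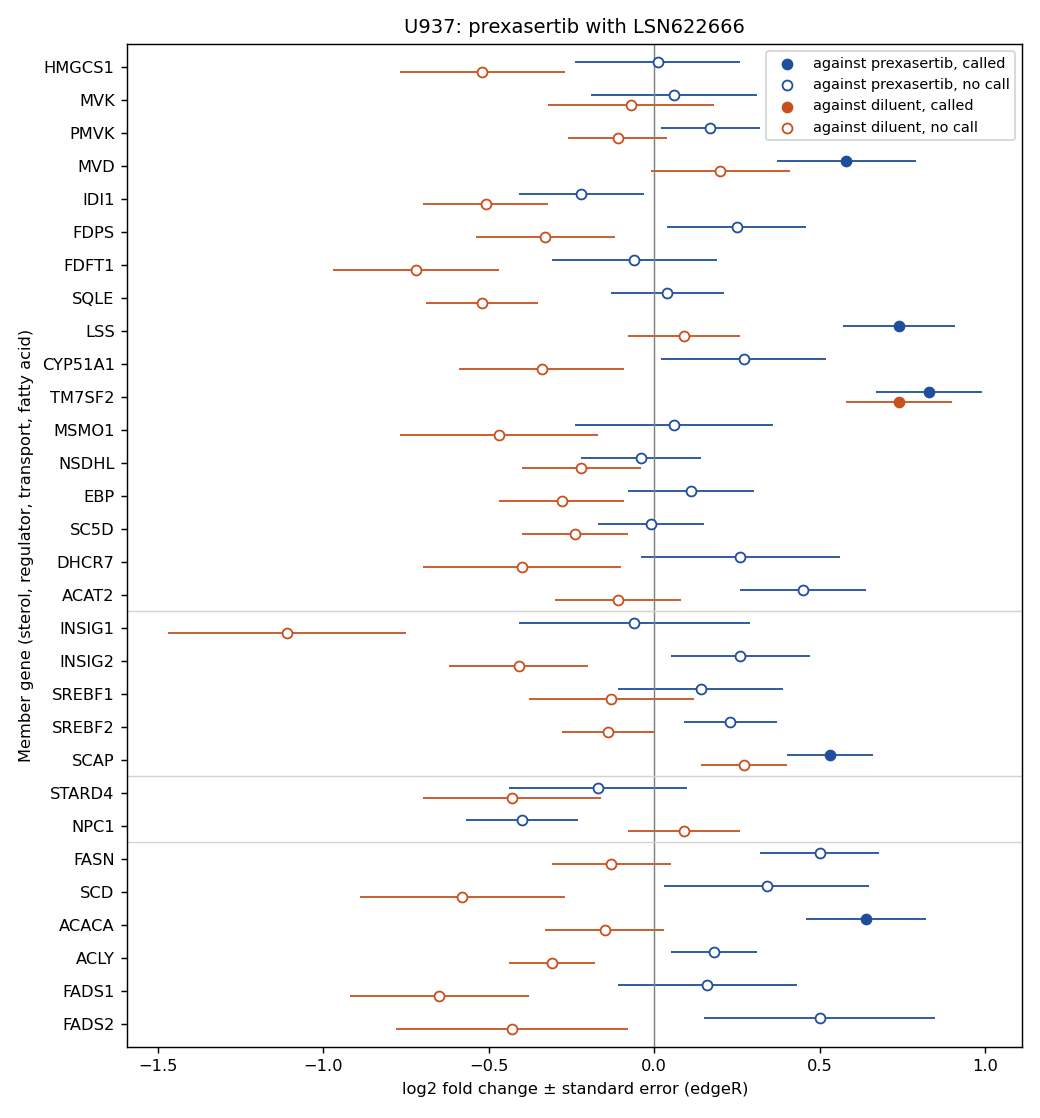
The log2 fold change of the combination against prexasertib alone and against diluent in U937 for 30 members, on the x axis with standard error bars, genes on the y axis by role (HSD17B7 and ELOVL6, nearly silent in U937, left out). TM7SF2 is called in both, at 0.83 and 0.74, whereas INSIG1 lies at -0.06 against prexasertib and at -1.11 against diluent.

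Neighbouring genes of the pathway were counted from 3 further lists. Of 22 other sterol, isoprenoid and fatty acid genes, prexasertib lowered 13 and raised 3 in ML1, and lowered 7 and raised 1 in U937, with median changes of -0.46 and -0.31. As shares of the list these were 59.1% lower and 13.6% higher in ML1, against 23.5% and 25.3% of all genes, and 31.8% and 4.55% in U937, against 12.8% and 18.3%. Without U937 prexasertib replicate 2, 4 of the 22 were lower in U937, with 5.04% of all genes called lower, and the median was -0.26. TMEM97, a sterol-regulated membrane protein, went from 74.6, 93.7 and 91.4 CPM to 10, 19.9 and 19.8 CPM in ML1 (-2.39 ± 0.23, adjusted p = 1.8e-07). SLC25A1, the mitochondrial citrate carrier, had -1.53 ± 0.18 in ML1, and HACD3, a dehydratase of fatty acid elongation, -1.06 ± 0.13. ACSL1, an acyl-CoA synthetase, rose in ML1 from 35.8, 28.2 and 26.3 CPM to 447, 284 and 277 CPM (3.48 ± 0.18, adjusted p = 1.0e-10). LBR, which shares its sterol reductase step with TM7SF2, fell in ML1 (-0.97 ± 0.12, adjusted p = 3.3e-06), where TM7SF2 rose. In U937 PDSS2, of the coenzyme Q side chain, had the smallest p of the list (-0.83 ± 0.13, adjusted p = 0.00022), and ELOVL5, another elongase, had -0.47 ± 0.11 (adjusted p = 0.0045). Both were still called without replicate 2, at -0.73 and -0.42. The combination against prexasertib gave 4 higher and 3 lower, or 18.2% and 13.6%, against 11.9% and 17.1% of all genes. ACSL3 had -0.42 ± 0.10 and ACSS2, the cytosolic acetyl-CoA synthetase, 0.83 ± 0.28. Without prexasertib replicate 2 the counts were 1 higher and 2 lower, with 6.32% and 10.3% of all genes called, and ACSS2 had 0.55 (adjusted p = 0.13). Against diluent the combination gave 1 higher and 2 lower, or 4.55% and 9.09%, against 6.88% and 4.11% of all genes.

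Of 17 genes of cholesterol export, storage and the LXR response, 16 were tested. Prexasertib raised 6 and lowered 3 in ML1, and raised 3 and lowered 3 in U937, with medians of 0.22 and 0.10. The U937 shares, 18.8% in each direction, were near the 18.3% higher and 12.8% lower of all genes. The ML1 shares were 37.5% higher and 18.8% lower, against 25.3% and 23.5% of all genes. Without U937 prexasertib replicate 2, 1 rose and 1 fell in U937, with 10.3% and 5.04% of all genes called. In that fit SOAT1 (-0.29) and MYLIP (0.47) below lost their calls, while NCEH1 (0.50) and LIPA (-0.62) were called. SOAT1, which esterifies cholesterol, fell in ML1 (-0.58 ± 0.10) and U937 (-0.31 ± 0.09), and NCEH1, a cholesteryl ester hydrolase, rose in ML1 (0.81 ± 0.14) and U937 (0.64 ± 0.14). MYLIP, a ligase that degrades lipoprotein receptors, rose by 0.55 ± 0.14 in ML1 and 0.54 ± 0.14 in U937. In the combination against prexasertib, 3 were higher and 2 lower, or 18.8% and 12.5%, against 11.9% and 17.1% of all genes. Among them were MYLIP (-0.86 ± 0.14), NCEH1 (-0.79 ± 0.14) and the lysosomal lipase LIPA (0.73 ± 0.17). LIPA had fallen with prexasertib in U937 (-0.81 ± 0.17); these comparisons share the prexasertib libraries. Of 12 genes for processing of the SREBF products and degradation in the endoplasmic reticulum, 5 fell and 1 rose in ML1, and 3 fell and 1 rose in U937, with medians of -0.18 and -0.15. These were 41.7% lower and 8.33% higher in ML1, against 23.5% and 25.3% of all genes. In U937 they were 25.0% and 8.33%, against 12.8% and 18.3%. Without U937 prexasertib replicate 2, 0 of the 12 were called lower and 1 higher in U937, with 5.04% and 10.3% of all genes called. In that fit FAF2 rose (0.39, adjusted p = 0.034), and ERLIN1 had -0.37 (adjusted p = 0.077) and no call. ERLIN1, a membrane scaffold, had -1.03 ± 0.16 in ML1 and -0.53 ± 0.16 in U937. In the combination against prexasertib 2 of the 12 were lower, FAF2 (-0.55 ± 0.11) and RNF139 (-0.66 ± 0.17). That was 16.7%, near the 17.1% of all genes called lower.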

How the data were processed

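The authors deposited raw counts per gene symbol for 15 libraries, 3 in each of 5 groups. Per the submitters' processing notes they used TopHat2 2.0.14, Bowtie2 2.2.6 and featureCounts 1.4.6, and hg38; per the labels' protocols the kit was TruSeq v2, which does not mark strand. From these counts, edgeR 4.0.16 (R 4.3.3) kept 17243 of 26485 genes by its expression filter, scaled libraries by TMM and fitted 1 quasi-likelihood model over all 15 libraries. P-values were adjusted by Benjamini-Hochberg over all genes tested, and a call is an adjusted p below 0.05. Each ± beside a log2 change is its standard error. RPKM used GENCODE v29 exon lengths; 10 members overlap exons of another gene. Tested on simulated counts for prexasertib in U937 (16906 genes), 86% of 100 genes changed by 1 log2 unit and 23% of 100 changed by 0.5 were called. All other genes were simulated without change, whereas in the data 18.3% were called higher and 12.8% lower. The adjusted threshold was therefore stricter in the simulation, and its shares do not measure those missed in the data.

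Replicate numbers come from the labels. Deviations of same-numbered libraries correlated at 0.409, 0.37 and 0.384 between U937 prexasertib and combination. The 9 values of the other pairs within a line ran from 0.0477 to 0.386, with at least 1 under 0.1 in each pair. The main fit treated no groups as paired, U937 prexasertib and combination included, and the replicate block was an alternative. For each comparison, named members were up to 6 called in each direction with the largest change, and always INSIG1, INSIG2, SREBF1, SREBF2 and SCAP; other members are named to account for all 32. From each further list, up to 4 called genes with the smallest p were named, and LBR was added after its values were seen. Members and lists were chosen with earlier results of these data known. Alternatives were DESeq2 1.42.0, its size factors, upper-quartile scaling, no filter, a stricter filter (5 CPM in 3 libraries), a replicate block, only the groups compared, and leaving out each library.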

Additional observations from a re-analysis of the deposited data

Results flagged for a closer look

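The change with prexasertib differed between U937 and ML1 by a test of the difference itself (edgeR, 3 libraries a group) for 6 members. The values, as the U937 log2 change minus the ML1 change, were 1.64 for SREBF1, 1.37 for SCD, 0.86 for FASN, 0.85 for EBP, 0.81 for PMVK and 0.71 for ACACA. In ML1 all 6 fell, and all prexasertib libraries lay below all diluent libraries. These 6 were picked by the test, and the share of all genes without overlap was not counted. In U937 SCD, FASN and ACACA fell, whereas EBP, PMVK and SREBF1 had no call. FADS1 (1.03, adjusted p = 0.066) and FADS2 (1.13, adjusted p = 0.11) had differences in the same direction with no call.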

How the results depend on the processing

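No member changed direction among its called values under any alternative. With the replicate block, U937 prexasertib gave 2 higher and 21 lower, against 22.8% and 21.4% of all genes. The combination against prexasertib gave 8 higher and 2 lower (18.8% and 22.2% of all genes). The combination against diluent gave 2 higher and 10 lower (12.9% and 12%), and the difference between lines 13 higher and 2 lower (17.5% and 16.8%). The block raised the number of calls in every comparison, among the members and over all genes. The labels do not say that replicate numbers mark shared cultures. The overlap of the lines and the further lists without U937 prexasertib replicate 2 were chosen after seeing the data. Without the filter, U937 prexasertib gave 7 lower (8.73% of all genes) and ML1 prexasertib 1 higher (18.3%). With only the groups compared, U937 prexasertib gave 0 higher, with 15.5% of all genes. The combination against prexasertib then gave 0 lower (13.1%) and the combination against diluent 5 lower (4.44%). DESeq2 gave 2 higher for U937 prexasertib (19.1%) and 3 lower for the combination against diluent (8.09%). Upper-quartile scaling gave 2 higher for the combination against diluent (8.86%). Leaving out 1 library gave, for U937 prexasertib, 0 to 2 higher and 3 to 15 lower. Of all genes, 10.3% to 20.2% and 5.04% to 15.5% were then called. ML1 prexasertib had 1 to 2 higher (21.4% to 22.8% of all genes), and the combination against diluent 0 to 1 higher (2.42% to 6%). The combination against prexasertib had 3 to 7 higher (6.32% to 12%) and 0 to 2 lower (10.3% to 17.3%). The difference between lines had 2 to 10 higher (8.95% to 11.8%) and 0 to 1 lower (10.2% to 12.9%). The cause was not tested. Upper-quartile scaling moved the median of all genes to 0.11 in the combination against diluent, and the members' median from -0.29 to -0.19; higher genes made up 86.6% of all calls there, against 62.6%, and 78.4% with the stricter filter. With only the groups compared, higher genes made up 71.0% of calls for U937 prexasertib, against 58.9%. In the simulation, where few genes changed, 23% of changes of 0.5 log2 units were called. The share missed in the data may be smaller and was not measured. A missing call near this size does not show the absence of a change.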
